A study of Sus scrofa with 14 samples.

Results

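Osteopontin (SPP1) and fibronectin (FN1) are secreted proteins that carry a cell-binding motif, and ITGB1, ITGB3, ITGA2 and ITGA5 are integrin chains that sit in the cell membrane. These 6 genes, of 6765 with a probe set of their own, were followed in the uterus of pregnant sows, F2 animals of an Iberian x Meishan cross. Every probe set whose only gene symbol in the platform annotation was 1 of the 6 was taken, which gave 11 of the 23999 probe sets tested. SPP1, ITGB1 and ITGB3 had 1 probe set each, ITGA2 and ITGA5 had 2 each and FN1 had 4. A gene with several is represented by its brightest probe set, the one with the highest mean over the 14 arrays, and the others are given beside it.

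The uterus was taken at slaughter between days 30 and 32 of the fifth gestation, and 1 Affymetrix porcine array was run per sow. The first group held 5 sows of high prolificacy and the second 9 sows of low prolificacy, all from the same cross of an Iberian with a Meishan line. The labels call the sows biological replicates and say neither how prolificacy was scored nor which layer or site of the uterine wall was sampled. Values are log2 levels after RMA, a method that removes background, brings arrays to a common scale and summarises each set's probes, and a difference of 1 is a 2-fold change. Array medians lay between 5.73 and 5.84. Of 3 genes looked at as markers of uterus, all chosen with values known, the progesterone receptor PGR had a level of 6.21 ± 0.32 (SD, n = 5) in the high prolificacy sows, against 7.04 ± 0.51 (SD, n = 9) in the low ones. The estrogen receptor ESR1 was at 6.89 ± 1.11 (SD, n = 5) in the high prolificacy sows, against 6.22 ± 0.59 (SD, n = 9) in the low ones, and the prostaglandin synthase PTGS1 at 7.27 ± 0.48 in the high prolificacy sows and 5.99 ± 0.60 in the low ones.

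Integrins work as pairs of 1 alpha and 1 beta chain that join the matrix outside the cell to the actin skeleton inside it. ITGA5 pairs with ITGB1 as the main fibronectin receptor, and ITGA2 pairs with ITGB1 as a collagen receptor. ITGB3 pairs with ITGAV in a receptor that binds osteopontin, vitronectin and fibronectin, and with ITGA2B on platelets. In the pig, osteopontin is made by the uterine luminal epithelium next to the implanting conceptus, at first in response to estrogen from the conceptus, and later by the glands. Fibronectin is made by stromal and muscle cells and by the trophoblast. PAG6, a pregnancy-associated glycoprotein of the trophoblast, was used as a measure of trophoblast transcript in a sample.

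Of the 6 genes 5 were called at their brightest probe set, in both directions, while of all 6765 genes 5.34% rose and 5.42% fell. ITGA2 and ITGB3 rose and ITGB1, ITGA5 and FN1 fell in high prolificacy, while SPP1 was not called. In limma with Benjamini-Hochberg adjustment over all probe sets tested, 2 of the 11 probe sets rose, beside 3.5% of all probe sets tested, and 3 fell, beside 4.35% of all. Probe sets called in either direction made up 7.85% of all. In 0 of the 11 did the groups stay apart without overlap, beside 2.64% of all. The 6 genes were chosen with results of these data known, so these counts describe them and do not test them. The labels do not give the layer of uterus sampled, so the layer, the share of a cell type and the RNA per cell cannot be told apart.

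**Figure D1:**
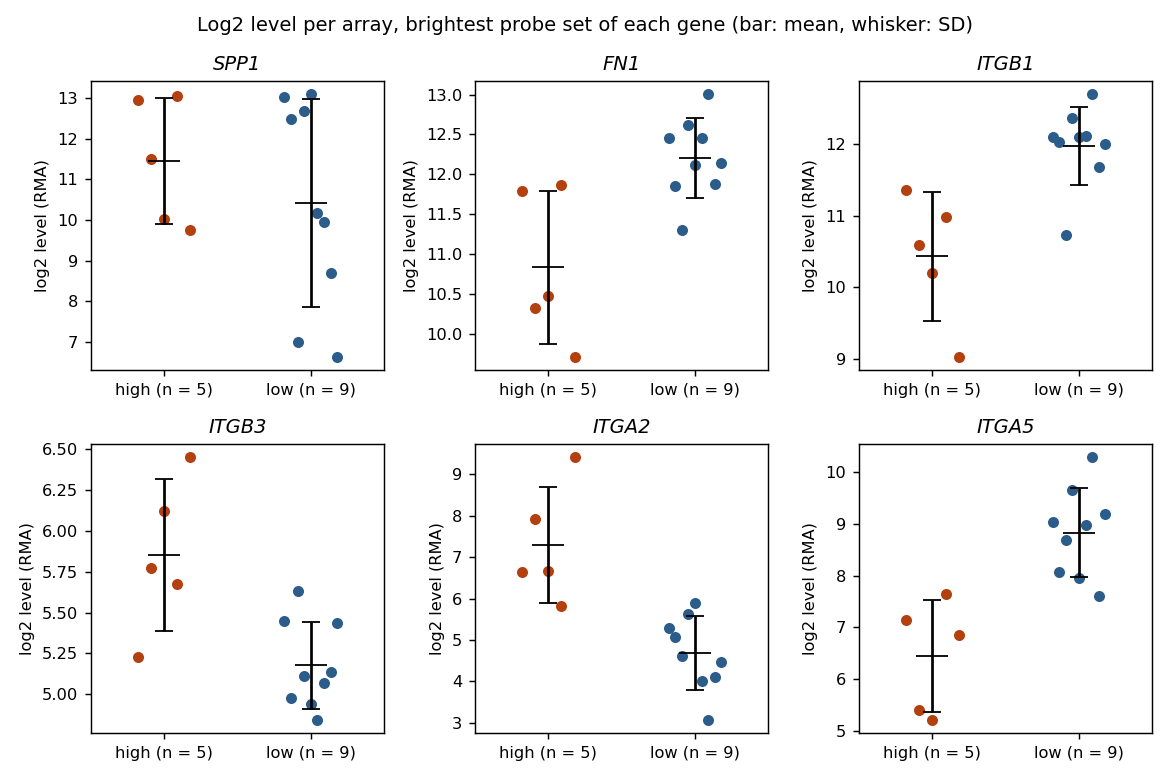
Log2 level of each gene's brightest probe set (vertical axes, RMA log2 units, a scale per panel) in the 5 high and the 9 low prolificacy arrays; points are arrays, the bar is the mean and the whisker the SD. The low prolificacy arrays of SPP1 spread from 6.63 to 13.09, and the groups overlap in every panel; in ITGB1 this comes from low 3 alone, at 10.72.

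SPP1, the osteopontin gene, was the most variable of the 6. In the high prolificacy arrays its level was 12.95, 11.49, 10.03, 13.04 and 9.74. In the low prolificacy arrays it ran from 6.63 over a median of 10.18 to 13.09. The groups overlapped fully at the top, where 4 low arrays lay between 12.49 and 13.09, and the lowest 3 values of all 14 arrays were those of low 9 (6.63), low 3 (6.99) and low 8 (8.71). Between the lowest and the highest low array lay an 88.2-fold range, and the SD of 2.56 was the 19th largest of the 23999 probe sets in that group. In the high group the SD was 1.56, with rank 271. The difference of the means was 1.04 ± 1.16 (SE, limma adjusted p = 0.69), with a 95% interval from -1.43 to 3.50, which takes in lower as well as higher levels. Without 1 array it lay between 0.56 (without low 9) and 1.46 (without high 5), at 0.61 without low 3, 0.64 without high 4 and 0.66 without high 1, and with array weights it was 0.065.

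FN1, the fibronectin gene, fell. Its brightest probe set was at 11.80, 10.32, 10.48, 11.87 and 9.71 in the high prolificacy arrays. In the low prolificacy arrays it ran from 11.31 over a median of 12.14 to 13.01. High 1 and high 4 reached into the low range: low 3 lay below both, and low 2, at 11.85, just below high 4. The difference was -1.37 ± 0.35 (SE, limma adjusted p = 0.028), a 2.59-fold lower level. A dimmer FN1 probe set differed by almost as much, -1.32 ± 0.59 (SE, limma adjusted p = 0.21), and was not called, with 5.84 ± 1.09 (SD, n = 5) in the high prolificacy sows, against 7.16 ± 1.19 (SD, n = 9) in the low ones. The remaining pair of FN1 probe sets averaged under the lowest array median of 5.73 in both groups, with differences of -0.31 and -0.028, and were not called.

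ITGB1, the beta chain shared by the fibronectin and collagen receptors, fell as well. It stood at 11.35, 10.58, 10.21, 10.98 and 9.03 in the high prolificacy arrays. The low prolificacy arrays ran from 10.72 over 12.09 to 12.69. Again the overlap came from low 3, at 10.72, which lay below high 1 and high 4, and the difference was -1.54 ± 0.35 (SE, limma adjusted p = 0.015), a 2.91-fold lower level.

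ITGA5, the alpha chain of the fibronectin receptor, had the largest drop of the 6 genes. Its level was 7.15, 5.40, 5.22, 7.65 and 6.86 in the high prolificacy arrays. In the low prolificacy arrays it ran from 7.60 over 8.97 to 10.29. High 4, at 7.65, lay just above low 8, at 7.60, and no other arrays of the groups overlapped. The difference was -2.37 ± 0.48 (SE, limma adjusted p = 0.0081), a 5.18-fold lower level. The dimmer ITGA5 probe set was also lower, at 4.90 ± 0.43 (SD, n = 5) in the high prolificacy sows, against 6.18 ± 0.91 (SD, n = 9) in the low ones, and its difference of -1.28 ± 0.40 (SE, limma adjusted p = 0.067) was not called. It was called with the PAG6 level in the fit, at -1.39 (limma adjusted p = 0.041), with array weights, at -1.54 (limma adjusted p = 0.022), and without low 5 or low 8 (limma adjusted p of 0.048 and 0.037).

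ITGA2, the alpha chain of a collagen receptor of epithelia and platelets, rose most. It was at 6.63, 7.91, 6.67, 5.83 and 9.43 in the high prolificacy arrays. In the low prolificacy arrays it ran from 3.08 over 4.63 to 5.90. Low 5, at 5.90, lay above high 4, at 5.83, and this was the only crossing of the groups. The difference was 2.61 ± 0.55 (SE, limma adjusted p = 0.011), a 6.10-fold higher level. Every low array but low 5 lay under the lowest array median of 5.73, and no detection calls show whether these values were above background, so the fold is uncertain. Its other probe set lay under the lowest array median in every array, and 4.95 in high 5 was its highest value. That probe set differed by 0.61 ± 0.28 (SE, limma adjusted p = 0.21) and was not called.

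ITGB3, the beta chain of the osteopontin and vitronectin receptor, rose by less. Its level was 5.23, 5.78, 6.12, 5.68 and 6.45 in the high prolificacy arrays. The low prolificacy arrays ran from 4.84 over 5.11 to 5.63. High 1 lay inside the low range and the other 4 high arrays above it. The difference was 0.67 ± 0.19 (SE, limma adjusted p = 0.041), a 1.60-fold higher level. Its mean of 5.18 in low prolificacy was under the lowest array median, and its fold is uncertain in the same way.

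**Figure D2:**
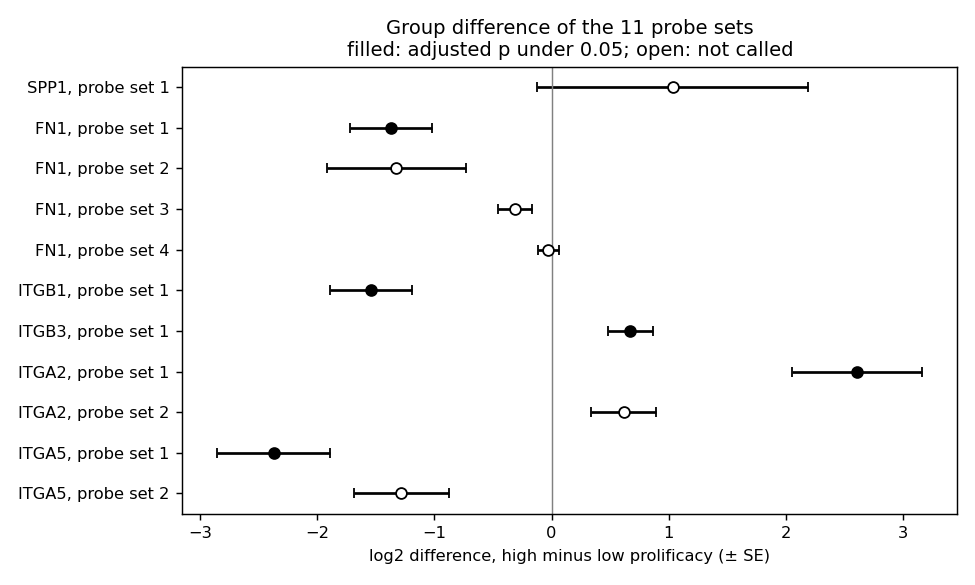
Log2 difference of high minus low prolificacy for the 11 probe sets (horizontal axis, points with limma's SE), listed within each gene from the brightest down. Filled points passed an adjusted p of 0.05: FN1, ITGB1 and ITGA5 lie at -1.37, -1.54 and -2.37, ITGB3 and ITGA2 at 0.67 and 2.61, and SPP1 at 1.04 has the widest error.

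The cell type markers moved between the same groups. All 13 smooth muscle markers on the array fell (median difference -3.33), and their mean level per array, centred on each gene's mean, lay between -3.44 and 0.0020 in high and between 0.69 and 1.85 in low prolificacy. Of 13 epithelial markers 6 rose and 0 fell (median 1.84), and their mean lay between 0.65 and 1.54 in high and between -2.39 and 0.26 in low prolificacy. Neither mean overlapped between the groups. Of 10 stromal fibroblast markers 4 fell and 1 rose, and of 9 endothelial markers 1 fell and 1 rose. Of 9 trophoblast markers 1 fell and 0 rose: TFPI2, a protease inhibitor, was 5.33-fold lower (limma adjusted p = 0.0052). TFPI2 was chosen with its value known. No marker of platelets (3 genes), macrophages (6), T and NK cells (7), B cells (2) or red blood cells (4) was called by limma, and 4 of these 22 had an unadjusted p under 0.05. Over all 6765 genes with 1 symbol, 5.34% rose and 5.42% fell, with a median difference of 0.073. Of these 6765 genes, 1814 had an unadjusted limma p under 0.05. These marker genes were chosen with earlier results known.

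With the smooth muscle or the epithelium mean as a covariate in limma, the 5 calls were lost. So were nearly all others: these fits called 0 and 2 of the 23999 probe sets, against 1885 without a covariate. With the smooth muscle mean the differences became 1.22 for ITGA2, -0.069 for ITGB3, -0.18 for ITGB1, 0.016 for ITGA5 and 0.30 for FN1, at adjusted p of 1.00 each. With the epithelium mean they were 1.25 for ITGA2, 0.54 for ITGB3, -0.94 for ITGB1, -1.17 for ITGA5 and -0.68 for FN1. The smooth muscle mean shares 0.83 of its variance with the group and the epithelium mean 0.54, so group and marker mean cannot be well told apart in these fits. With PAG6, which shares 0.033 with the group, all 5 calls were kept, from -2.56 for ITGA5 to 2.62 for ITGA2. That fit called 2347 probe sets in all.

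**Figure D3:**
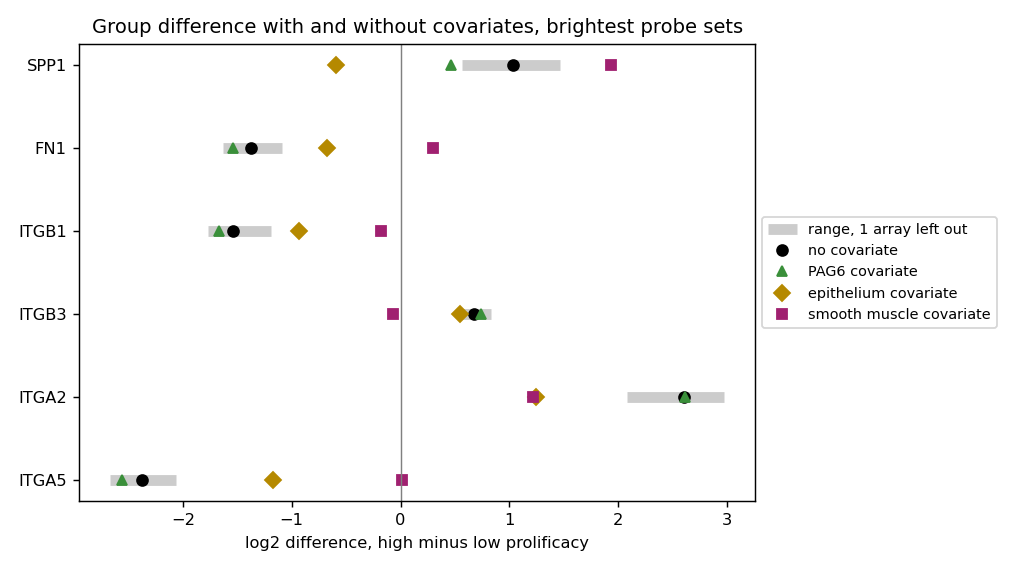
Log2 difference of high minus low prolificacy for the brightest probe set of each gene (horizontal axis), with no covariate (circles) and with PAG6 (triangles), the epithelium mean (diamonds) or the smooth muscle mean (squares) in the fit; grey bars span the fits that leave out 1 array. With the smooth muscle mean, ITGB1, ITGA5 and ITGB3 come to lie between -0.18 and 0.016, and ITGA2 drops from 2.61 to 1.22. FN1 turns to 0.30 and SPP1 lies at 1.93, and none of the genes is called in this fit.

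Leaving out 1 array ended some calls. ITGA5 and ITGA2 kept theirs in all 14 such fits. ITGB1 lost it without high 3 (limma adjusted p = 0.051), and FN1 lost it without high 2, high 3, high 5 or low 6 (limma adjusted p of 0.090, 0.089, 0.078 and 0.052). ITGB3 lost it in 10 of the 14 fits, with adjusted p up to 0.13 without high 3.

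The relation of the 6 genes to the trophoblast gene PAG6 was examined within and across the groups. PAG6 was at 10.74, 3.86, 4.33, 11.43 and 6.21 in the high prolificacy arrays. In the low prolificacy arrays it ran from 3.60 over 5.24 to 10.89. Both groups thus held arrays with little and with much PAG6, and the group difference of 1.06 ± 1.49 (SE, limma adjusted p = 0.77) was not called. The PAG6 median of the low arrays and the levels of high 2 and high 3 lay under the lowest array median of 5.73. No detection calls show whether such levels were above background, so the order of these arrays by PAG6 is uncertain. In the low arrays the other PAG6 probe sets had slopes on this one of 1.06 ± 0.072 (SE, limma adjusted p = 0.00016) and 0.50 ± 0.11 (SE, limma adjusted p = 0.22), and GATA3, a trophoblast transcription factor, had a slope of 0.46 (limma adjusted p = 0.00028). GATA3 was chosen with its value known, and the other 7 genes of the trophoblast list did not pass, with slopes between -0.075 for GATA2 and 0.18 for HAND1 (limma adjusted p between 0.19 and 0.90). Genes of the PAG family are near copies of each other and can share probes.

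SPP1 tended to be higher where PAG6 was higher, but most tests of this did not pass after adjustment. Among the high prolificacy arrays, high 4 and high 1 had the most of both, with SPP1 at 13.04 and 12.95, but 5 arrays are too few for a correlation. In the 9 low prolificacy arrays Pearson's r was 0.73 (exact permutation p = 0.030) and Spearman's rho 0.80 (exact permutation p = 0.014), and without low 4 and low 5, the arrays farthest from the median of PAG6, r was 0.63. Adjusted over the 22 relations computed with PAG6, these permutation p were 0.33 and 0.15. The slope was 0.72 ± 0.22 log2 units of SPP1 per log2 unit of PAG6 (SE, limma adjusted p = 0.34 over all probe sets), so it did not pass. In this fit 0.221% of all probe sets passed, and the unadjusted p of SPP1 was 0.0088. With the mean of the trophoblast list in place of PAG6, the slope of SPP1 was 2.73 (limma adjusted p = 0.74).

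Over all 14 arrays the relation was similar. Pearson's r of SPP1 with PAG6 was 0.71 (permutation p = 0.0052) and Spearman's rho 0.78 (permutation p = 0.0016), and r without high 4 and low 4 was 0.65. Adjusted over the 22 relations, the permutation p was 0.11 for r and 0.035 for rho. The slope of SPP1 was 0.56 ± 0.15 (SE, limma adjusted p = 0.20) without a group term, in a fit that called 0.45% of all probe sets. With a group term it was 0.54 ± 0.15 (SE, limma adjusted p = 0.15), where 0.629% were called. The slopes of the groups differed by -0.38 ± 0.30 (SE, limma adjusted p = 0.82), high minus low, in a test that called 0.0208% of all probe sets. With PAG6 in the fit, the group difference of SPP1 was 0.46 (limma adjusted p = 0.82). With the epithelium mean beside PAG6 the slope of SPP1 in the low arrays was 0.62, and with the smooth muscle mean it was 0.70.

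**Figure D4:**
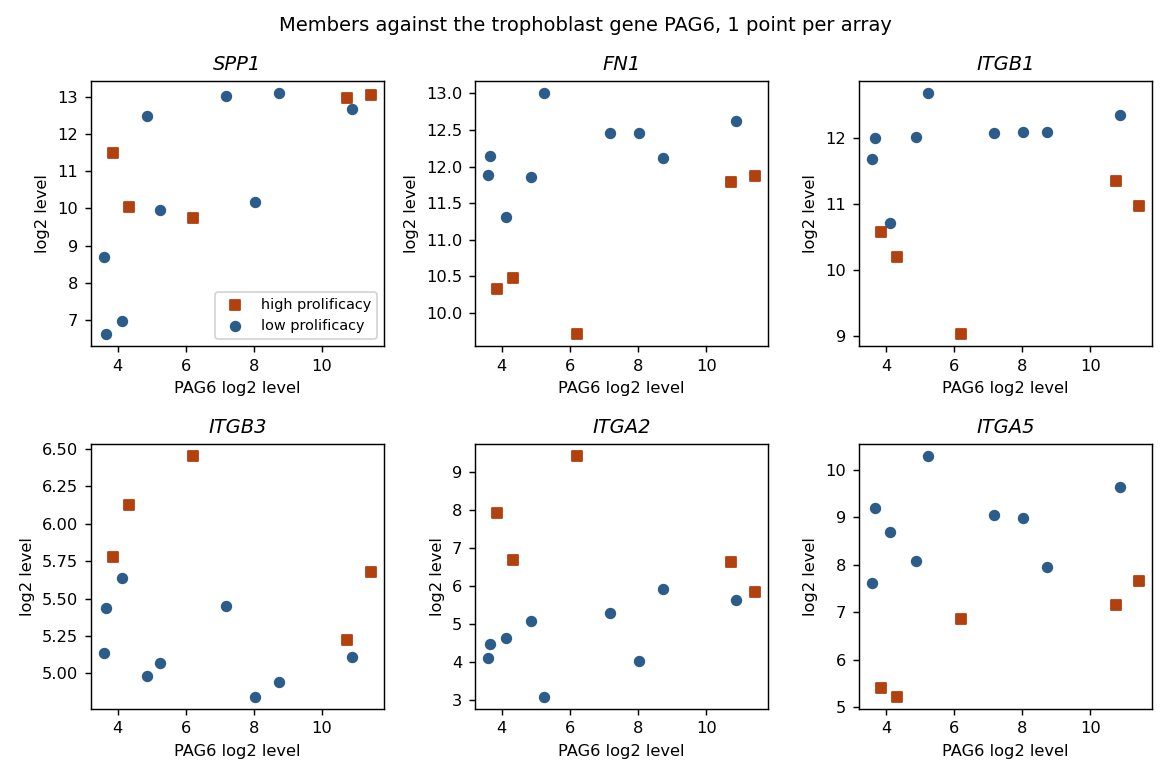
Log2 level of each gene (vertical axes) against the log2 level of PAG6 (horizontal axes), with squares for the 5 high and circles for the 9 low prolificacy arrays. SPP1 reaches 12.67 or more in each of the arrays whose PAG6 level is above 10.7, and its 3 lowest values lie in arrays with PAG6 under 4.2. Other arrays depart from this: SPP1 is at 11.49 in high 2 and 12.49 in low 2, with PAG6 at 3.86 and 4.87. In low 6 SPP1 is at 10.18 with PAG6 at 8.03.

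None of the other 5 genes passed with PAG6 in limma, unless the epithelium mean was added: FN1 then had a slope of 0.17 over both groups with a group term (limma adjusted p = 0.0405). In the low prolificacy arrays the slope of FN1 was 0.095 ± 0.058, of ITGB1 0.094 ± 0.064, of ITGA5 0.080 ± 0.11, of ITGA2 0.19 ± 0.095 and of ITGB3 -0.045 ± 0.036 (SE), with limma adjusted p between 0.50 and 0.81. Pearson's r for the brightest probe sets ran from -0.43 for ITGB3 (exact permutation p = 0.24) to 0.55 for ITGA2 (exact permutation p = 0.13), which became 0.063 without low 4 and low 5. ITGB1 gave r = 0.45 (exact permutation p = 0.23) and rho = 0.77 (exact permutation p = 0.021, adjusted over the 22 relations 0.16). Over both groups with a group term, the slope of FN1 was 0.16 ± 0.047 (SE, limma adjusted p = 0.17) and that of ITGA5 0.18 ± 0.073 (SE, limma adjusted p = 0.31). The slope of ITGA2 differed by -0.40 ± 0.18 between high and low prolificacy, high minus low (SE, limma adjusted p = 0.64), which did not pass. The 22 relations were those of the 11 probe sets with PAG6, within the low arrays and over both groups, and only the 2 of SPP1 had a raw p of Pearson's r under 0.05.

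Ligands, receptor chains and their partners were set against each other in the 9 low prolificacy arrays, for 7 pairs. FN1 and ITGB1 went together most closely, with r = 0.92 (exact permutation p = 0.00012, adjusted over the 7 pairs 0.00085) and rho = 0.85, and r was 0.78 without low 3 and low 7. Low 7 had the highest and low 3 the lowest level of both genes. Low 7 also had the highest smooth muscle mean, 1.85, and the lowest epithelium mean, -2.39. The part of cell content in this relation was not tested. Neither gene was among the 3 genes most like the other in the ranking given below. FN1 and ITGA5 had r = 0.71 (exact permutation p = 0.030, adjusted over the 7 pairs 0.10), and r was 0.85 without low 3 and low 7. Without low 3 alone, FN1 with ITGA5 (r = 0.91, exact permutation adjusted p = 0.0077) and ITGA5 with ITGB1 (r = 0.86, exact permutation adjusted p = 0.010) passed. ITGA5 with ITGB1 had r = 0.49, SPP1 with ITGB1 0.53, SPP1 with ITGB3 -0.51, FN1 with ITGB3 -0.43 and ITGA2 with ITGB1 -0.10, with exact permutation adjusted p between 0.26 and 0.79. Without low 3 and low 9, r of SPP1 was 0.14 with ITGB1 and 0.22 with ITGB3, so these values rested on those arrays, and r of SPP1 with ITGB1 was 0.22 without low 3 alone. For ITGA5 with ITGB1, r was 0.26 without low 7.

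The genes whose pattern was most like each of the 6 were ranked by Pearson's r over the 14 arrays, with the mean of each group taken out, among 6764 genes. For SPP1 they were DNAJB11 (0.96), an endoplasmic reticulum chaperone partner, SULT2A1 (0.95), a steroid sulfotransferase, and PPA1 (0.95), a pyrophosphatase. None of the 3 was called between the groups, with limma adjusted p between 0.54 and 0.74. For FN1 they were the actin regulator CFL2 (0.94), the fibrillin FBN1 (0.94) and FKBP7 (0.93). For ITGB1 they were CAV2 (0.96), LNPK (0.96) and ZCCHC9 (0.96), and for ITGA5 SLC12A4 (0.91), CKB (0.89) and PKDCC (0.89). DGKA (0.91), SKIV2L (0.91) and TRIP10 (0.90) were nearest to ITGB3, and AGPAT3 (0.88), RPS2 (0.87) and MSC (0.86) to ITGA2. The arrays share their samples and their normalization, so these values describe likeness only.

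Other genes of integrin adhesion came from 4 lists with 66 genes on the array, each at its brightest probe set. Of these 4 rose and 18 fell in limma (6.06% and 27.3%), with a median difference of -0.36. Among all 6765 genes with 1 symbol, 5.34% rose and 5.42% fell. Of the 66 genes 4 were also cell type markers, COL3A1 among them. Falling genes stood mainly among the adaptors and the matrix ligands, and the smooth muscle markers fell between the same groups. The part of smooth muscle in this was not tested.

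Of 18 integrin adaptors and partners, 10 fell and 2 rose (median difference -1.21). Vinculin, VCL, which links integrin complexes to actin, was at 9.73 ± 0.53 (SD, n = 5) in the high prolificacy sows, against 11.52 ± 0.35 (SD, n = 9) in the low ones, a 3.47-fold lower level (limma adjusted p = 0.00072). The actin cross-linker FLNA fell 7.19-fold and LIMS2, a partner of integrin-linked kinase, 7.31-fold. CAV1, the main protein of caveolae, fell 5.28-fold, the tetraspanin CD151 2.58-fold and RSU1, another partner of the same kinase complex, 3.32-fold. The pair that rose, chosen with their values known, were the tetraspanin CD9 (1.00) and the tensin TNS3 (1.63).

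Of 23 other integrin ligands, 7 fell and 1 rose (median difference -0.88). The tenascin TNC was at 4.68 ± 1.01 (SD, n = 5) in the high prolificacy sows, against 8.53 ± 0.84 (SD, n = 9) in the low ones, with no overlap of the groups (limma adjusted p = 0.00072). Its mean in high prolificacy lay under the lowest array median of 5.73, so the size of its drop is uncertain. The thrombospondin THBS2 fell 4.53-fold, to a mean of 5.41 in high prolificacy that lay under the lowest array median, the matricellular protein CYR61 4.77-fold, the laminin chain LAMC1 3.26-fold and the basement membrane collagen COL4A2 3.32-fold. COL3A1, a fibrillar collagen chain, rose 2.22-fold, at 7.44 in high and 6.29 in low prolificacy, and the groups overlapped. It was also the 1 riser among the 10 stromal fibroblast markers, of which 4 fell. Vitronectin, VTN, which binds the ITGB3 receptor, was at 5.97 in high and 5.04 in low prolificacy and was not called (limma adjusted p = 0.19). VTN was chosen with its value known.

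Among 12 other integrin chains and matrix receptors, 1 fell and 1 rose. ITGA8, which pairs with ITGB1 and binds osteopontin and fibronectin, fell 4.95-fold, to 6.75 ± 0.98 (SD, n = 5) in the high prolificacy sows, against 9.06 ± 1.14 (SD, n = 9) in the low ones (limma adjusted p = 0.020). DDR1, a collagen receptor of epithelia, rose 1.95-fold. ITGAV, the partner of ITGB3, was at 8.38 in high and 8.85 in low prolificacy (limma adjusted p = 0.62), and the platelet partner ITGA2B at 6.28 in high and 6.23 in low prolificacy (limma adjusted p = 0.87). Both were chosen with their values known. Of 13 proteases, inhibitors and cross-linkers that act on these ligands, none was called by limma, and 3 had an unadjusted p under 0.05. Among all 6765 genes with 1 symbol, 1814 had such an unadjusted p. MMP7, a matrix protease that cleaves osteopontin, had the smallest p, at 9.69 in high and 7.32 in low prolificacy (limma adjusted p = 0.072). MMP7, too, was chosen with its value known.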

How the data were processed

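Per the submitters' processing notes, the deposited log2 values were made with RMA; its version is not given in the sources used here. No detection calls were used, and the labels give no batch. Of 24123 probe sets, 124 controls were left out. Symbols came from the platform annotation, and all 11 member probe sets were found under the same symbol in the gene table of Sscrofa11.1 by gene number. No sequences or coordinates were used here.

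High minus low prolificacy, and slopes on PAG6 (the brightest of its 3 probe sets), were fitted with limma 3.58.1 in R 4.3.3 (lmFit, eBayes, two-sided) over all 23999 probe sets, with Benjamini-Hochberg adjustment and a threshold of 0.05. Correlations had two-sided permutation p-values, exact for 9 arrays and from 100000 resamples for 14. Named genes were all member probe sets, the 3 most alike genes of each member, PAG6, and the called genes of each pathway list, at most 6. Other named genes are marked as chosen with their values known. The members, lists and rule were chosen with earlier results of these data known. The procedure was tested on simulated data. The number of arrays limits precision. Alternatives covered probe set filtering, scaling, array weights, variance settings, the replicate block, covariates, thresholds and each array left out. The marker means beside PAG6, and the relations of SPP1 with marker means, were added after seeing the data.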

Additional observations from a re-analysis of the deposited data

Results flagged for a closer look

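One result stood apart from the rest of its group. The third brightest FN1 probe set had a level of 4.82 in high 5, while the other 4 high prolificacy arrays lay between 4.57 and 4.60. The gap to the nearest array was 0.861 of the range of the group, above Dixon's 95% critical value of 0.710. Of 24 groups of arrays checked in this way 1 was singled out, and chance alone singles out about 1 in 20. This probe set averaged under the lowest array median, and its FN1 difference was not called.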

How the results depend on the processing

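Against 1885 probe sets called between high and low prolificacy, limma called 3060 with array weights, 2925 at an adjusted p of 0.10, 0 with the smooth muscle mean as a covariate (286 at an unadjusted p under 0.05) and 2 with the epithelium mean, and between 944 and 2650 without 1 array (944 without high 3, 1002 without high 2). With the replicate number as a block it called 35. Same-numbered arrays correlated between -0.25 and 0.42 in their deviations, over 0.1 in 3 of 5 pairs. Of these arrays, 3 of 5 high and 2 of 5 low ones correlated best with their own number. With only 5 pairs this cannot show whether the numbers pair the sows, and the labels name no pairing. Under the replicate block the differences were 1.99 for ITGA2, 0.63 for ITGB3, -1.24 for FN1, -1.43 for ITGB1 and -2.22 for ITGA5, none called, and the signs of SPP1 (-0.20) and the dimmest FN1 probe set (0.0023) turned. Signs also turned with the smooth muscle mean in FN1 (0.30, 0.27 and 0.0019 in 3 probe sets), ITGB3 (-0.069), the dimmer ITGA2 probe set (-0.028) and ITGA5 (0.016), and with the epithelium mean in SPP1 (-0.59) and 2 uncalled FN1 probe sets (0.045 and 0.0029). ITGB3 was also lost with array medians subtracted (limma adjusted p = 0.053). Of the PAG6 slopes in low arrays, 53 were called, 31 among the 12000 brightest probe sets and between 28 and 68 without 1 array (28 without low 4). With a group term 151 were called, 75 among the brightest, 238 with the epithelium mean (FN1 among them) and between 81 and 205 without 1 array (under 100 without high 3, high 4 or low 9). Without a group term 108 were called, 43 among the brightest, 166 with the smooth muscle mean and between 71 and 121 without 1 array (71 without high 4). For the difference of slopes 5 were called, 0 with the trophoblast list mean in place of PAG6 (1304 at an unadjusted p under 0.05), 0 with the epithelium mean (1419), 1 with the smooth muscle mean and between 0 and 18 without 1 array (0 without low 4, 1367 at an unadjusted p under 0.05; 18 without low 8). The slope of SPP1 was called under none of the alternatives run (lowest limma adjusted p = 0.068) and stayed above 0 within and across groups. Uncalled slopes near 0 changed sign. For ITGA2 these were 0.046 with the smooth muscle mean and between -0.072 and 0.081 without 1 array (with a group term), and -0.096 with the trophoblast mean and -0.011 with the epithelium mean (without one). For ITGA5 the slope in low arrays lay between -0.0012 and 0.15 without 1 array. The slope difference of ITGB1 was -0.062 with the epithelium mean, -0.030 with the smooth muscle mean and between -0.0069 and 0.12 without 1 array, and that of ITGB3 0.0026 with the smooth muscle mean and between -0.078 and 0.0062 without 1 array. Of the 7 pairs 1 passed, 2 by Spearman's rho and between 1 and 3 without 1 array (3 without low 3). Among them r of FN1 with ITGB3 lay between -0.55 and 0.012, and r of ITGA2 with ITGB1 between -0.25 and 0.36. ITGB3, ITGA2, the dimmer ITGA5 and the dimmest FN1 probe sets were not among the 12000 brightest and have no value there. The cause of these changes was not tested, and no detection calls showed which dim probe sets lay above background.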

Other observations

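The arrays of low prolificacy with the most SPP1 were also those with the most red blood cell transcript. The mean of 4 red blood cell markers was 2.03 in low 5, 1.80 in low 2, 1.21 in low 4 and 0.86 in low 1, the 4 low arrays with SPP1 at 12.49 or more. It was -0.53 in low 3, -1.19 in low 8 and -1.58 in low 9, the 3 with the least SPP1. Low 6 and low 7 broke the order, with means of -0.95 and 0.43 and SPP1 at 10.18 and 9.96. In high prolificacy the mean was 1.25 in high 4 but -0.33 in high 1, with SPP1 at 13.04 and 12.95. It was -0.96 in high 2, -1.35 in high 3 and -0.69 in high 5, with SPP1 at 11.49, 10.03 and 9.74. Over the 9 low arrays r was 0.87 (exact permutation p = 0.0043, adjusted over 10 marker lists 0.043) and rho 0.85 (exact permutation p = 0.0061, adjusted 0.061), and r was 0.79 without low 8 and low 9. Of the other 9 marker lists none had an exact permutation p under 0.05. The largest r among them were 0.64 for stromal fibroblasts, 0.63 for macrophages and 0.60 for trophoblast. These relations were computed after the data were seen. The markers were HBB, ALAS2, AHSP and HBE1, an embryonic globin, and whether the cells were maternal or fetal was not tested. In the low arrays HBE1 had an SD of 3.26, against 0.71 for HBB, 1.41 for ALAS2 and 1.33 for AHSP. The mean was not scaled by gene, so HBE1 weighed most in it, and SPP1 was not set against each marker alone.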
